A study of Rattus norvegicus with 8 samples.

Results

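The genes of glutamate uptake, recycling and vesicular loading were examined in rat frontal cortex after repeated olanzapine. The group consisted of 7 of the 14217 genes that had a probe set with 1 symbol, Glul, Glud1, Slc1a1, Slc1a2, Slc1a3, Slc17a6 and Slc17a7, and its members were all probe sets that the platform's annotation table assigned to exactly 1 of these symbols. That rule took 15 of 31042 probe sets (control spots left out), 3 each for Glul and Slc1a3, 2 each for Glud1, Slc1a1, Slc1a2 and Slc17a7, and 1 for Slc17a6. A filter on dim probe sets left 12 of the 15 for testing, among 18625 tested in all, and each of the 7 genes kept at least 1. The dim ones were Glul 1367633_at, Slc1a2 1369694_at and Slc17a7 1368986_at.

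The treated rats had received the antipsychotic olanzapine, an antagonist at several monoamine receptors, at 2 mg/kg/day by the intraperitoneal route for 21 days, and the control rats had received saline over the same period. All were outbred male Sprague-Dawley rats that weighed about 200 g at the start and were assigned at random, 20 to each group; their age is not given in the sources used here. Olanzapine arrays came from animals 9, 14, 18 and 19 and saline arrays from animals 14, 15, 17 and 19 of their own group, 4 arrays each, and every array is called here by its group and its animal. The animals were not pooled, the tissue was bulk cortex, and a change in the number of cells cannot be told apart from a change in RNA per cell.

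Glutamate is the main excitatory transmitter of the cortex. After release it is cleared mostly by astrocytes through the sodium-driven transporters GLAST, encoded by Slc1a3, and GLT-1, encoded by Slc1a2, and to a smaller extent by neurons through EAAC1, encoded by Slc1a1. Astrocytes turn the captured glutamate into glutamine with glutamine synthetase, encoded by Glul, or burn it through glutamate dehydrogenase, encoded by Glud1, and neurons reload newly made glutamate into vesicles through VGLUT1, encoded by Slc17a7 and typical of cortical neurons, or VGLUT2, encoded by Slc17a6 and typical of thalamic neurons.

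Median intensities were 159 to 191 per array. At the 98th percentile of intensity the olanzapine arrays had 5451 to 5692, against 5567 on saline 19 and 6127 to 6204 on the other saline arrays, so that saline 19 lay within the olanzapine range at the bright end. Of the markers of cortical cell types, 7 of 9 for excitatory neurons, 7 of 8 for GABAergic neurons and 13 of 14 for astrocytes passed the filter. That filter is a relative cut on brightness and does not by itself show that a gene was detected. Intensity is a property of the probe set as well as of the transcript, and levels of different probe sets are therefore not ranked against each other here.

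The adjusted test called no member. In limma's moderated test, with Benjamini-Hochberg adjustment over all 18625 probe sets, 0 of 12 member probe sets had an adjusted p under 0.05, where the share called over all probe sets was 0%. By the unadjusted p under 0.05 there were 4 of 12, against 8.32% of all probe sets. Of these 4, those for Glul, Slc1a3 and Slc1a1 were lower in olanzapine, against 3.73% of all probe sets in that direction, and that for Slc17a6 was higher, against 4.59%. In the 3 lower ones every olanzapine array lay below every saline array, which 2.07% of all probe sets showed. In none did every olanzapine array lie above every saline array, which 2.4% of all probe sets showed. Over the 12, 7 were lower and 5 higher with a median log2 difference of -0.039, and over all tested probe sets 44% were lower with a median of 0.027. All log2 differences are olanzapine minus saline on the log2(intensity + 63.4) scale, which understates the change of dim probe sets.

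**Figure D1:**
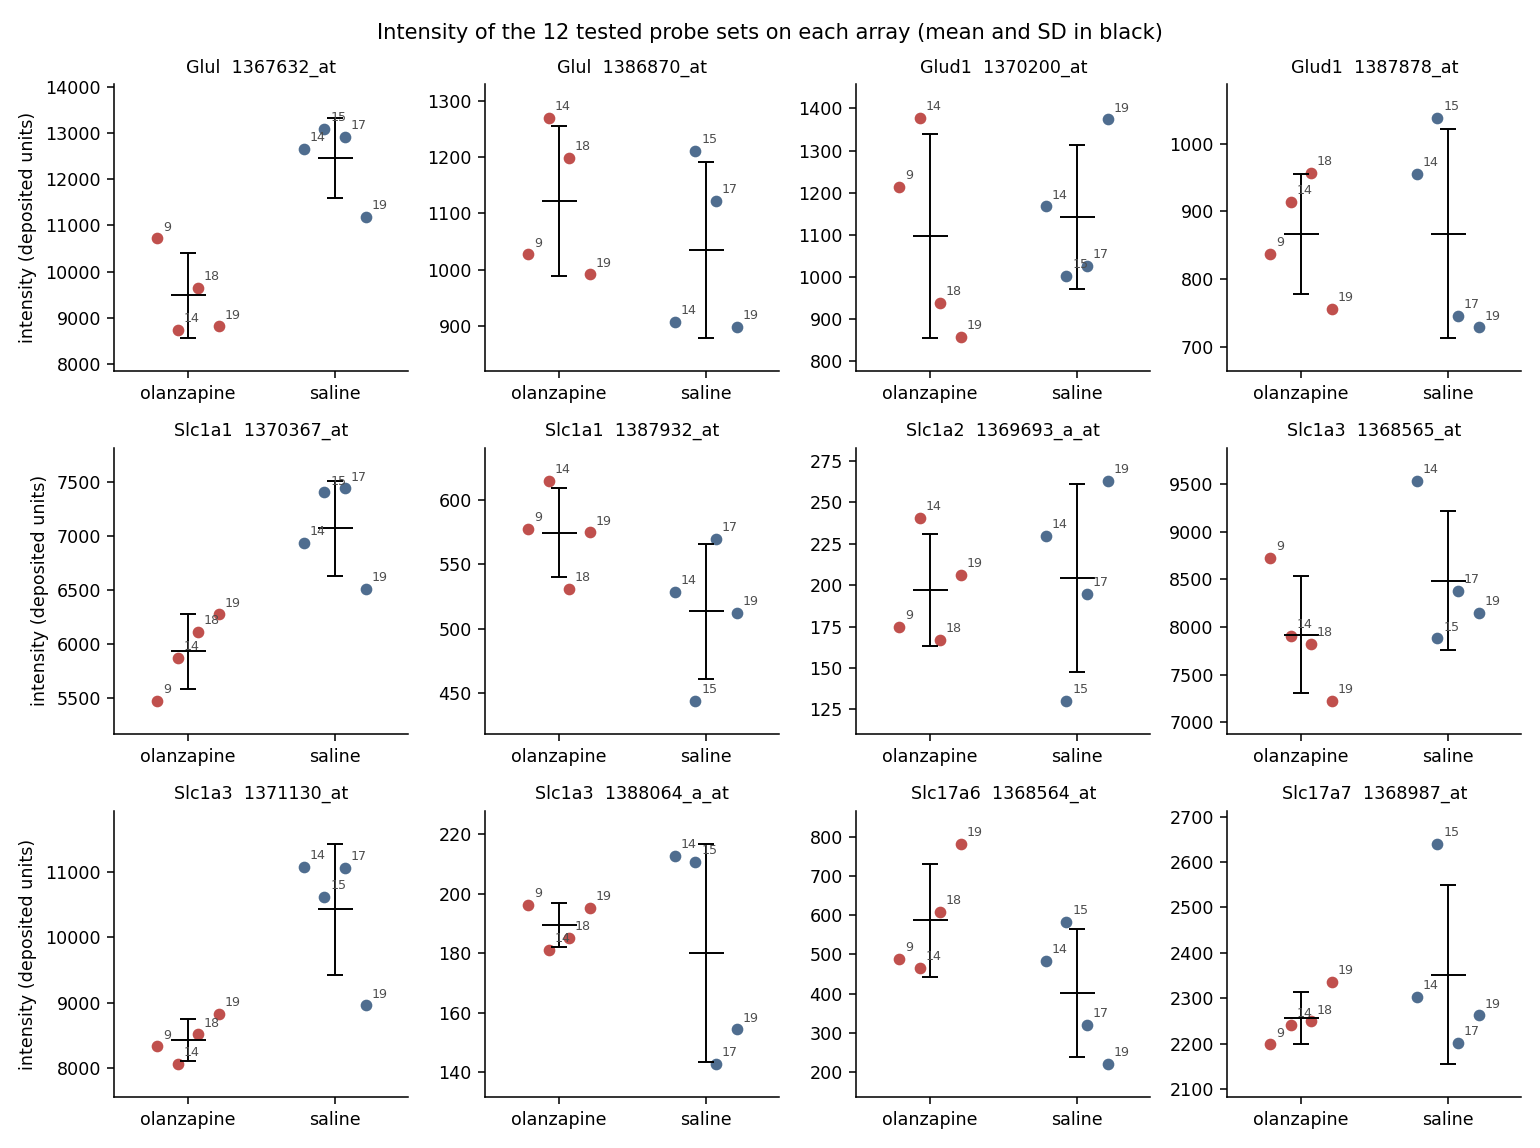
Deposited intensity (vertical axis, linear, a separate range in each panel that does not start at 0) of the 12 tested probe sets on each olanzapine array (red) and saline array (blue), with animal numbers beside the points and mean and SD in black (n = 4 each). The groups do not overlap for Glul 1367632_at, Slc1a1 1370367_at and Slc1a3 1371130_at, and saline 19 is the saline array nearest the olanzapine arrays in each of the 3.

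Recycling to glutamine was represented by Glul. Glul 1367632_at had intensities of 10718, 8743, 9656 and 8817 on olanzapine 9, 14, 18 and 19, against 12660, 13093, 12907 and 11178 on saline 14, 15, 17 and 19. All 4 olanzapine values lay below the lowest saline value, that of saline 19. Means were 9484 ± 921 in olanzapine and 12459 ± 872 in saline (SD, n = 4 each), a log2 difference of -0.39 (SE 0.086, 0.761-fold, limma unadjusted p = 0.000349, adjusted p = 0.317). This was the smallest p of the 12 probe sets.

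A second Glul probe set did not share that difference. Glul 1386870_at had 1027, 1270, 1199 and 992 in olanzapine, against 908, 1212, 1123 and 899 in saline. The groups overlapped, with means of 1122 ± 134 in olanzapine and 1035 ± 157 in saline (SD, n = 4 each) and a difference of 0.11 (SE 0.13, limma adjusted p = 0.858). It was 0.054 without saline 19 and 0.189 without saline 15. The dim Glul 1367633_at ranged from 90.9 to 165.7 in olanzapine and from 93.4 to 123.8 in saline.

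Glud1, whose enzyme converts glutamate to the citric acid cycle intermediate alpha-ketoglutarate, showed no difference beyond the spread between animals. Glud1 1370200_at averaged 1097 ± 242 in olanzapine and 1142 ± 171 in saline (SD, n = 4 each), a difference of -0.069 with a 95% interval of -0.39 to 0.25. Glud1 1387878_at averaged 867 ± 88.3 in olanzapine and 867 ± 154 in saline, a difference of 0.0088 with an interval of -0.28 to 0.30. Intervals of this width do not show that the groups were alike.

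Among the uptake genes, the astrocyte transporter gene Slc1a3 gave 2 bright probe sets. Slc1a3 1371130_at had 8335, 8065, 8520 and 8828 in olanzapine, against 11077, 10618, 11055 and 8962 in saline. The olanzapine values were close together and all below the saline values, although saline 19, at 8962, was only just above olanzapine 19, at 8828. The difference was -0.30 (SE 0.083, 0.813-fold, limma unadjusted p = 0.00266, adjusted p = 0.355).

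Slc1a3 1368565_at had 8724, 7911, 7826 and 7224 in olanzapine, against 9536, 7882, 8379 and 8152 in saline. The groups overlapped and the difference was -0.098 (SE 0.086, limma adjusted p = 0.812), with a 95% interval of -0.28 to 0.085. It was -0.041 without saline 14. The remaining probe set of this gene, Slc1a3 1388064_a_at, was dim and ranged from 181.2 to 196.1 in olanzapine and from 142.7 to 212.6 in saline, with a difference of 0.067 (SE 0.18).

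The neuronal transporter gene Slc1a1 also had a bright and a dimmer probe set. Slc1a1 1370367_at had 5472, 5873, 6112 and 6276 in olanzapine, against 6942, 7409, 7444 and 6513 in saline. The groups did not overlap, saline 19 was again the lowest saline array, and the difference was -0.25 (SE 0.081, 0.840-fold, limma unadjusted p = 0.00718, adjusted p = 0.428). The dimmer Slc1a1 1387932_at went the other way by 0.15 (SE 0.13, limma adjusted p = 0.808), with means of 575 ± 34.4 in olanzapine and 514 ± 52.5 in saline (SD, n = 4 each) and overlapping groups. Without saline 15 it was 0.088.

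Slc1a2, the gene of the main astrocyte transporter of the adult forebrain, was read only by dim probe sets. Slc1a2 1369693_a_at had 174.7, 240.7, 166.9 and 206.1 in olanzapine, against 229.8, 130.0, 194.6 and 263.2 in saline, values not far from the median of an array. Its difference was -0.022 (SE 0.20, limma adjusted p = 0.988), and the 95% interval of -0.45 to 0.40 spans the differences of every other member except Slc17a6. The precision for this gene was thus lower than for Slc1a3 1371130_at, whose interval was -0.48 to -0.12.

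Slc1a2 1369694_at, below the filter, had 33.8, 145.6, 36.9 and 34.4 on olanzapine 9, 14, 18 and 19, against 119.8, 33.4, 17.6 and 167.2 on saline 14, 15, 17 and 19. Values above 100 occurred on olanzapine 14, saline 14 and saline 19, thus in both groups. The other 5 arrays had 17.6 to 36.9.

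Of the vesicular loading genes, Slc17a7 had overlapping groups. Slc17a7 1368987_at had 2198, 2241, 2249 and 2335 in olanzapine, against 2303, 2640, 2201 and 2262 in saline. The olanzapine arrays were close together, with an SD of 57.5 against 197 in saline, where saline 15 was the highest array. The difference was -0.055 with a 95% interval of -0.25 to 0.14 (limma adjusted p = 0.912), the sign of which depended on saline 15, since without that array it was 0.00035. The dim Slc17a7 1368986_at ranged from 64.2 to 144.7 in olanzapine and from 49.4 to 151.7 in saline.

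Slc17a6 was the member with the largest positive difference. Slc17a6 1368564_at had 489, 466, 610 and 783 on olanzapine 9, 14, 18 and 19, against 483, 583, 321 and 219 on saline 14, 15, 17 and 19. The groups overlapped: saline 14 and 15 lay among the olanzapine arrays, whereas saline 17 and 19 lay below all of them. Means were 587 ± 145 in olanzapine and 401 ± 163 in saline (SD, n = 4 each), a difference of 0.53 (SE 0.23, 1.44-fold, limma unadjusted p = 0.0352, adjusted p = 0.554).

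The spread of Slc17a6 was wide in both groups. On the log2 scale its SD was 0.31 in olanzapine and 0.53 in saline, against 0.036 and 0.11 for Slc17a7 1368987_at. Without saline 19, the lowest array, the Slc17a6 difference was 0.31 (limma adjusted p = 0.593).

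VGLUT2 neurons are concentrated in the thalamus, and genes listed as markers of thalamic neurons were therefore set beside Slc17a6. Whether these genes, Calb2 among them, come only from thalamic cells in this cortical tissue was not tested. Of 7 such genes 5 passed the filter, of which 4 were higher and 1 lower in olanzapine with a median difference of 0.13, and 0 were called. The kinase gene Prkcd differed by 0.31 (SE 0.16), Calb2, which encodes the calcium-binding protein calretinin, by 0.28 (SE 0.15) and the transcription factor gene Tcf7l2 by 0.12 (SE 0.13), with limma adjusted p-values of 0.656, 0.688 and 0.849. The summed intensity of the 5 markers was 3551 to 4483 in olanzapine and 3339 to 4268 in saline. Without saline 19 all 5 were higher and the median was 0.36, and without olanzapine 9 the median was 0.097, in place of 0.13. Tcf7l2 was at 0.0049 without saline 15, and Calb2 was at 0.16 without olanzapine 9. The part of tissue composition in the Slc17a6 difference was not tested.

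**Figure D2:**
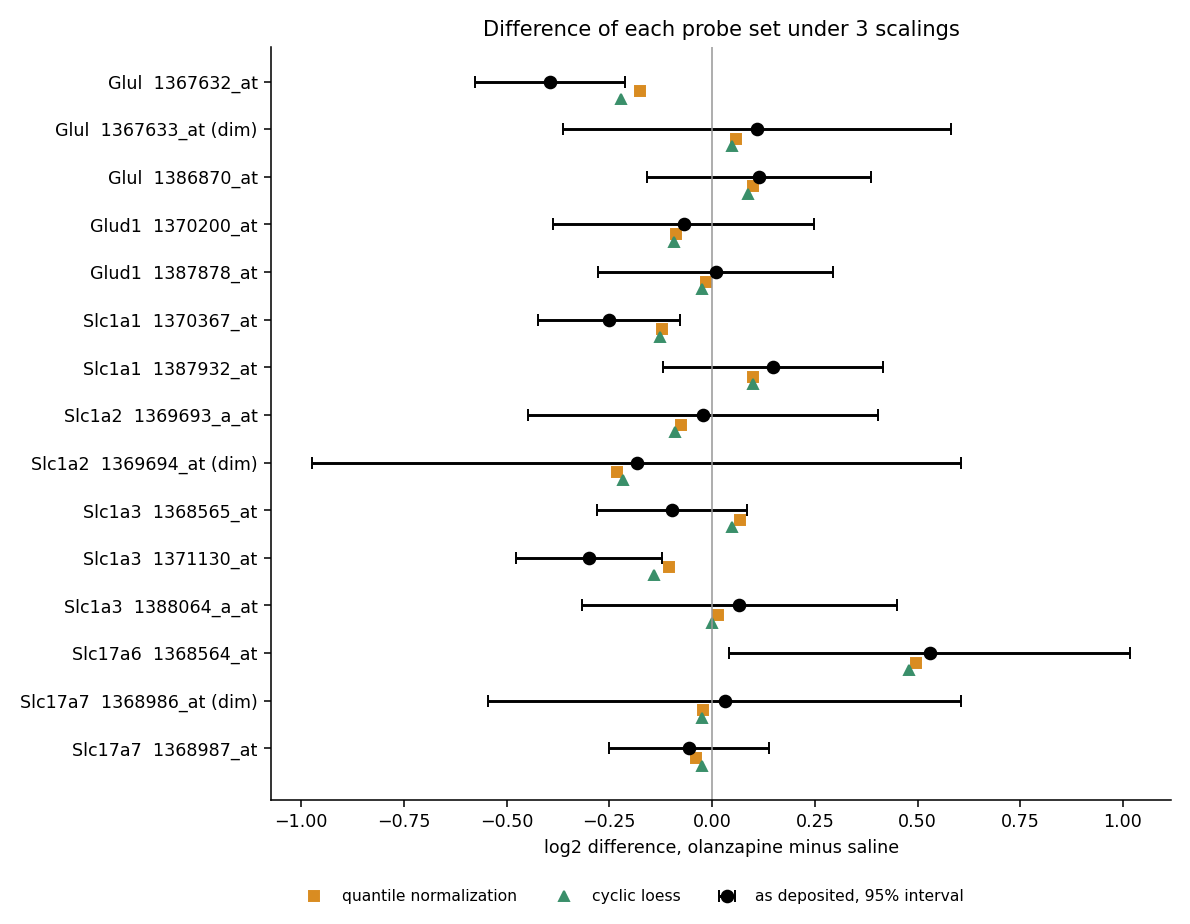
Log2 difference, olanzapine minus saline, of all 15 member probe sets (3 dim ones below the filter are marked), with the 95% interval for the values as deposited (black) and the difference after quantile normalization (orange) and cyclic loess (green). The bright probe sets of Glul, Slc1a1 and Slc1a3 move towards 0 under both normalizations, and Slc17a6 is at 0.50 and 0.48.

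The lower values of the bright member probe sets went together with a dependence of the group difference on brightness. Glul 1367632_at, Slc1a3 1371130_at, Slc1a3 1368565_at and Slc1a1 1370367_at all lay among the brightest 5% of tested probe sets, with 0.8%, 1.2%, 1.7% and 2.7% of probe sets brighter. In that brightest 5%, which held 932 probe sets, the median difference was -0.15, and 18.6% had every olanzapine array below every saline array, against 2.07% overall. In the same group 38.4% had an unadjusted p under 0.05 with lower values in olanzapine, against 3.73% overall. The mean log2 value of this group was 12.8, and Glul 1367632_at and Slc1a3 1371130_at lay in its upper part. No median was taken for that part alone. Members in the middle range, such as Glud1, the second Glul probe set and Slc1a1 1387932_at, lay in groups of brightness with median differences of 0.013 to 0.038.

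Quantile normalization gives all arrays 1 common distribution of intensities and brought the median of the brightest 5% to 0.00032. Glul 1367632_at then differed by -0.18 (limma unadjusted p = 0.00959, adjusted p = 0.698), in place of -0.39. Slc1a1 1370367_at differed by -0.12 (unadjusted p = 0.0627) and Slc1a3 1371130_at by -0.11 (unadjusted p = 0.0567). Slc1a3 1368565_at turned to 0.068. Slc17a6 remained at 0.50 (unadjusted p = 0.0671, limma adjusted p = 0.791). After this normalization 1 of 12 member probe sets had an unadjusted p under 0.05, Glul 1367632_at, against 6.37% of all probe sets. After cyclic loess 2 of 12 did, against 1196 of all 18625 probe sets. They were Glul 1367632_at at -0.22 (limma unadjusted p = 0.00402) and Slc1a3 1371130_at at -0.14 (limma unadjusted p = 0.0185). After median centring 3 of 12 did, against 1285 of all 18625.

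**Figure D3:**
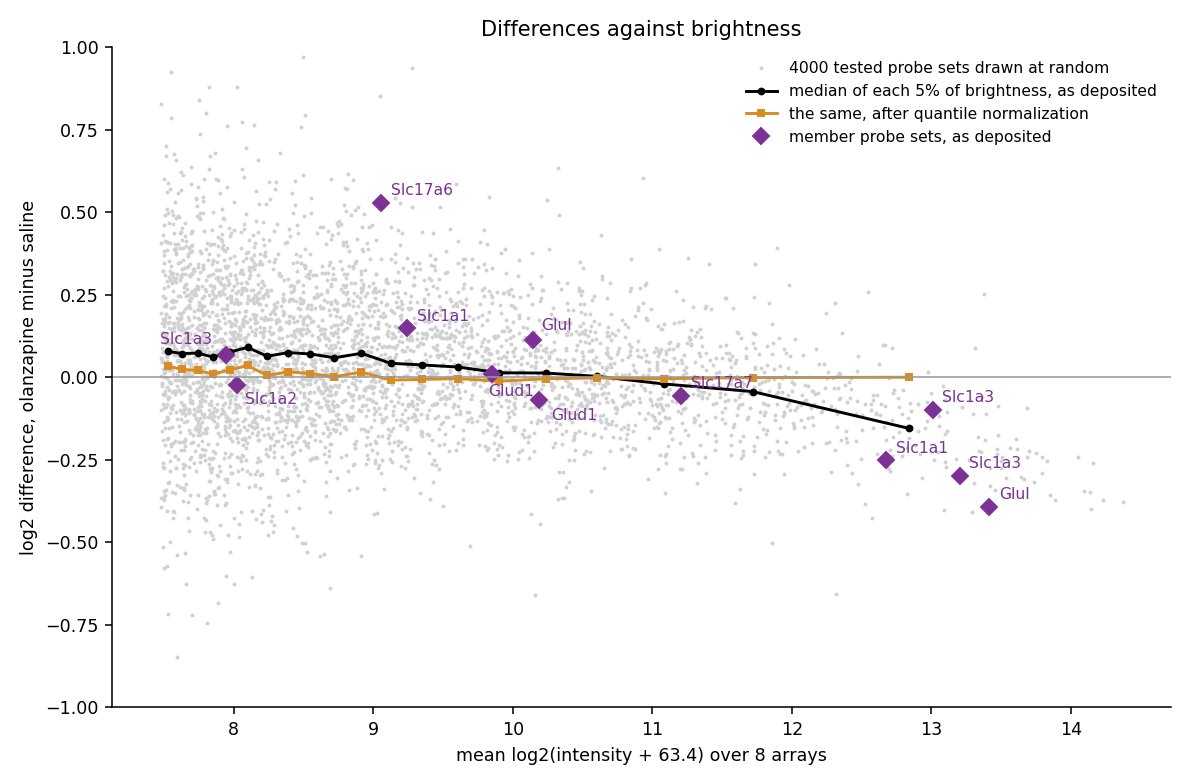
Log2 difference, olanzapine minus saline (vertical axis, points beyond the range not shown), against the mean log2(intensity + 63.4) over the 8 arrays. Grey points are 4000 tested probe sets drawn at random, lines join the medians of successive 5% groups of brightness as deposited (black) and after quantile normalization (orange), and purple diamonds are the 12 tested member probe sets as deposited. The black line falls to -0.15 in the brightest group, where 4 of the diamonds lie between -0.39 and -0.098.

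Probe sets of the same gene were compared within arrays, where any factor common to an array cancels except for the added 63.4. Over 12 pairs, tested by an exact two-sided permutation test whose smallest possible p is 0.0286, none passed adjustment over the pairs, which would have needed at least 7 pairs at the smallest p. The log2 gap between Glul 1367632_at and Glul 1386870_at was 3.01 ± 0.24 in olanzapine and 3.52 ± 0.15 in saline (SD, n = 4 each), a difference of -0.51 (exact p = 0.0286, adjusted 0.114). The gap between Slc1a1 1370367_at and Slc1a1 1387932_at was 3.23 ± 0.13 in olanzapine and 3.63 ± 0.17 in saline, a difference of -0.40 (exact p = 0.0286, adjusted 0.114). The gap between Slc1a3 1371130_at and Slc1a3 1388064_a_at differed by -0.37 with the same p. In these 3 pairs a bright probe set was set against a dimmer one, and the gap was smaller on every olanzapine array than on any saline array. After quantile normalization the 3 differences were -0.28, -0.22 and -0.12, with exact p-values of 0.114, 0.0857 and 0.429. The other bright Slc1a3 probe set, 1368565_at, did not separate the groups in this way. Its gap over the dim Slc1a3 1388064_a_at differed by -0.165 as deposited (exact p = 0.229, adjusted 0.343), and the groups overlapped.

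As deposited, the gap between the 2 bright Slc1a3 probe sets, which are of similar brightness, differed less between the groups. It was 0.093 ± 0.15 in olanzapine and 0.29 ± 0.14 in saline, a difference of -0.20 (exact p = 0.114, adjusted 0.274). After quantile normalization this difference was -0.175 (exact p = 0.143). It was then larger than the -0.12 of Slc1a3 1371130_at over the dim Slc1a3 1388064_a_at. The gap between the Glud1 probe sets differed by -0.078 (exact p = 0.743). Between genes, the gap of Slc17a7 over Slc17a6 differed by -0.58 (exact p = 0.0857, adjusted 0.257), which was -0.39 without saline 19, and that of Slc1a2 over Slc1a3 by 0.28 (exact p = 0.257), which was 0.119 without saline 15 and 0.452 without saline 19. The gaps of Glul over Glud1, Glul over Slc1a2, Slc17a7 over Slc1a2 and Slc1a1 over Slc1a2 differed by -0.32, -0.37, -0.033 and -0.23, with exact p-values of 0.229 to 0.943. None of these between-gene differences had an exact p under 0.05.

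Leaving out saline 19 changed the calls. Without it 2 member probe sets were called, Glul 1367632_at at -0.44 (limma adjusted p = 0.0258) and Slc1a3 1371130_at at -0.37 (limma adjusted p = 0.0285), both lower in olanzapine, while 106 probe sets or 0.569% were called overall and 95 of those, or 0.51% of all, were lower. Slc1a1 1370367_at was at -0.29 and was not called (limma adjusted p = 0.12). With quantile normalization and without saline 19, a combination chosen after seeing the data, 0 members were called, with Glul 1367632_at at -0.17 (limma adjusted p = 0.598) and Slc1a3 1371130_at at -0.13 (limma adjusted p = 0.644). Leaving out any other single array called no member.

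**Figure D4:**
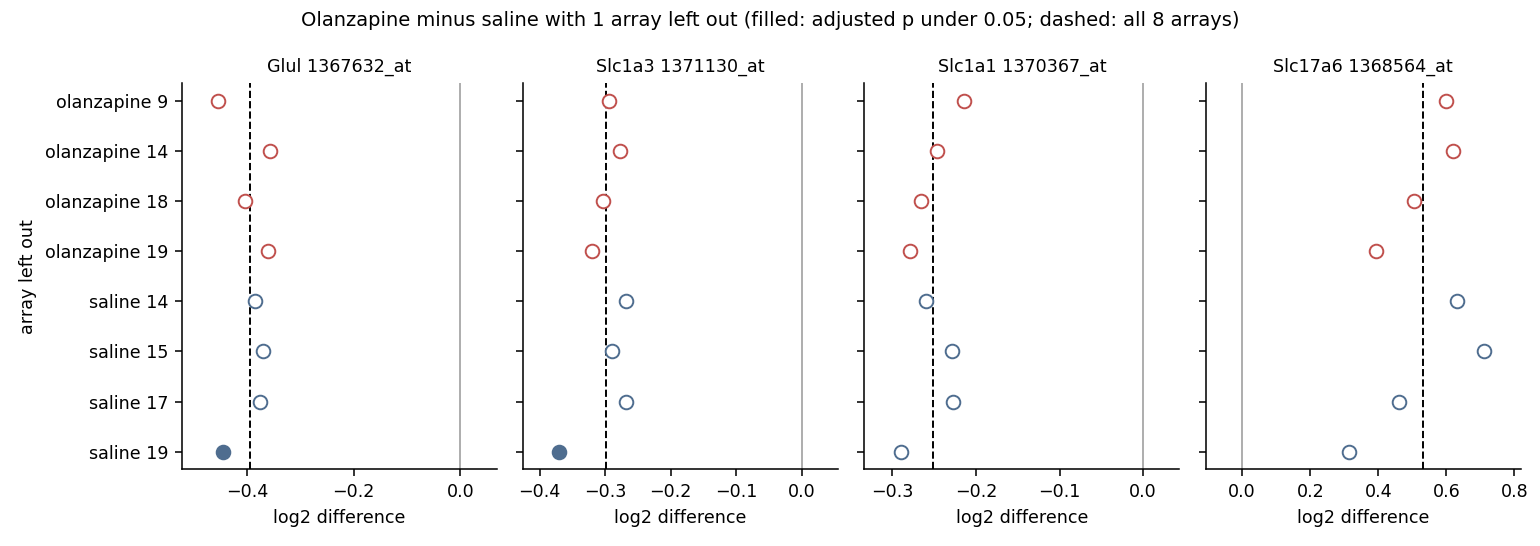
Log2 difference, olanzapine minus saline, of the 4 member probe sets with an unadjusted p under 0.05 when each array named on the vertical axis is left out (red, an olanzapine array; blue, a saline array). Filled points have an adjusted p under 0.05, dashed lines mark the difference with all 8 arrays and grey lines mark 0; only the removal of saline 19 gives filled points, for Glul and Slc1a3.

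Other genes of glutamate handling were counted in 4 lists, with 1 probe set per gene. None of their tested members was called. Of 15 tested genes that supply or interconvert glutamine and glutamate, 7 were higher and 8 lower in olanzapine with a median of -0.0068, which was 0.039 after quantile normalization. Bcat1, a cytosolic branched-chain aminotransferase gene, had 10780 ± 947 in olanzapine and 13093 ± 1026 in saline (SD, n = 4 each), a difference of -0.28 (SE 0.085, limma adjusted p = 0.401) that was -0.058 after quantile normalization. Aldh18a1, whose enzyme starts the route from glutamate to proline, had 240 ± 36.3 in olanzapine and 372 ± 87.6 in saline, a difference of -0.50 (SE 0.18, limma adjusted p = 0.488) that was -0.55 after quantile normalization. Gpt2, a mitochondrial alanine aminotransferase gene, differed by 0.23 (SE 0.15), which was 0.132 without saline 14 and 0.35 without olanzapine 19.

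Of 4 tested genes of other glutamate and exchange transporters 3 were higher and 1 lower, with a median of 0.081, which was 0.021 without saline 15 and 0.126 without saline 19. Slc3a2, the heavy chain shared by several amino acid exchangers, differed by 0.13 (SE 0.16), the neutral amino acid transporter gene Slc1a4 by 0.063 (SE 0.096) and the cystine-glutamate exchanger gene Slc7a11 by 0.099 (SE 0.15). Slc3a2 was at 0.023 without saline 17 and 0.26 without olanzapine 19, Slc1a4 at 0.014 without olanzapine 19, and Slc7a11 at -0.032 without olanzapine 9. Of 7 tested genes that maintain ion gradients or bind the transporters 4 were higher and 3 lower, with a median of 0.0077. The sign and the tally depended on the setting: the median was -0.044 with 2 higher and 5 lower under median centring, and -0.100 with 3 higher and 4 lower without olanzapine 9. The sodium pump subunit gene Atp1b1 differed by -0.32 (SE 0.097, limma adjusted p = 0.401), which was -0.15 after quantile normalization and which was called without saline 19 at -0.41. The astrocyte water channel gene Aqp4 differed by -0.16 (SE 0.088), which was -0.031 after quantile normalization, and the glial pump subunit gene Atp1b2 by 0.20 (SE 0.11).

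The vesicular proton pump acidifies the vesicle and so drives glutamate loading through the VGLUT proteins. All 17 genes of that list were tested, and 13 were lower and 4 higher in olanzapine with a median of -0.19, against 44% lower and a median of 0.027 over all probe sets. The pump subunit gene Atp6v1e1 differed by -0.31 (SE 0.11), the vesicular chloride transporter gene Clcn3 by -0.27 (SE 0.10) and the subunit gene Atp6v1d by -0.21 (SE 0.084), with limma adjusted p-values of 0.466, 0.518 and 0.526. After quantile normalization the 3 differed by -0.14, -0.17 and -0.037, the median of the list was -0.064, and 15 of 17 were lower. With 1 array left out the median ran from -0.22 without saline 19 to -0.13 without olanzapine 19. The 3 named genes lay among the brightest 5%, with 1.7%, 3.8% and 1.7% of probe sets brighter. Atp6v1a, Atp6ap2, Atp6v1g2 and Atp6ap1 did too, with 2.3%, 3.2%, 3.3% and 4.3% brighter. The rest were dimmer, down to Atp6v1g1 with 37.7% brighter. Of these dimmer genes, Atp6v0b, Atp6v0d1 and Atp6v0e2 were at -0.23, -0.24 and -0.19. After quantile normalization they were at -0.21, -0.21 and -0.18. Atp6v0a1, Atp6v1h and Atp6v1c1 were higher, at 0.072, 0.0071 and 0.0038, and the other dimmer genes were at -0.13 to -0.034. Over all tested probe sets of the brightest 5% the median difference was -0.15. The summed intensity of the list was 60504 to 66451 in olanzapine and 63001 to 79323 in saline, and the part of the brightness dependence in this list was not tested.

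**Figure D5:**
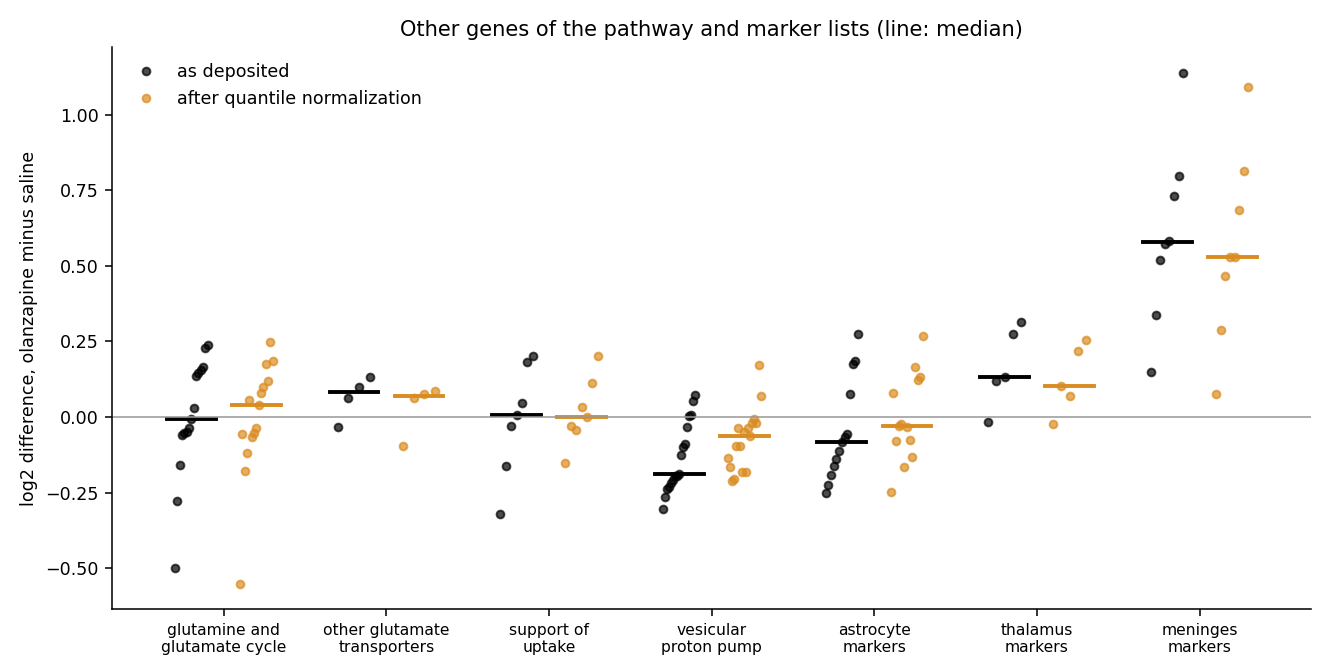
Log2 difference, olanzapine minus saline, of each tested gene (points, 1 probe set per gene) in the 4 lists of glutamate handling and 3 marker lists, as deposited (black) and after quantile normalization (orange), with the median of each list as a line. The vesicular proton pump median is -0.19 as deposited and -0.064 after normalization, and all 8 meningeal markers lie above 0 in both.

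Astrocyte markers, read beside Glul and Slc1a3, were lower in 9 and higher in 4 of 13 tested genes with a median of -0.083, and 0 were called. Their summed intensity was 44821 to 52993 in olanzapine and 50685 to 57425 in saline. The gap junction gene Gja1 was at -0.22 (SE 0.080), which became 0.080 after quantile normalization. Aqp4 differed by -0.16 as given above, and the glycolytic enzyme gene Aldoc by -0.19 (SE 0.11), which was -0.080 after quantile normalization and -0.083 without saline 15. These 3 had the smallest p of the list and lay among the brightest 5%, with at most 3.6% of probe sets brighter. S100b and Fgfr3 also lay in that 5%, with 3.3% and 4.7% brighter. Fgfr3 was higher in olanzapine, at 0.076 as deposited and 0.165 after quantile normalization. Of the other lower markers, S100b and Ndrg2 moved from -0.14 and -0.083 to -0.022 and -0.033 after quantile normalization. Gfap, Mlc1, Clu and Aldh1l1 lay outside the brightest 5%. They were at -0.25, -0.11, -0.065 and -0.056 as deposited, and at -0.25, -0.17, -0.075 and -0.13 after that normalization. The 4 markers that were higher, chosen here after their values were seen, were Gjb6, a gap junction gene, at 0.27 (SE 0.19), the angiotensinogen gene Agt at 0.18 (SE 0.18), the amino acid transporter gene Slc7a10 at 0.18 (SE 0.19) and the growth factor receptor gene Fgfr3 at 0.076 (SE 0.080). After quantile normalization 8 of 13 were lower with a median of -0.031. Without olanzapine 19 the median was -0.0069. The part of astrocyte content in the Glul and Slc1a3 differences was not tested.

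Meningeal markers were higher in olanzapine in 8 of 8 genes with a median of 0.58, where 44% of all probe sets were lower. With 1 array left out that median ran from 0.43 without olanzapine 9 to 0.69 without olanzapine 18. None was called, 6 of 8 were higher by the unadjusted p under 0.05, against 4.59% of all probe sets, and their summed intensity was 3510 to 8944 in olanzapine and 2533 to 3313 in saline. Excitatory neuron markers had a median of 0.029 over 7 genes, GABAergic neuron markers 0.066 over 7, oligodendrocyte markers 0.16 over 7, microglial markers 0.23 over 3, endothelial markers 0.13 over 6 and striatal markers -0.046 over 3, with 0 called in each. The part of these in the member differences was not tested.

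Genes with the profile most like a member's were sought by the root mean square difference between log2 profiles over the 8 arrays, each centred on its own mean. For Glul 1367632_at, whose own profile had a root mean square deviation of 0.22, they were Myh1, a myosin heavy chain gene, at 0.042, the mitochondrially encoded cytochrome oxidase gene COX2 at 0.046 and the synaptic vesicle gene Sv2b at 0.047. For Slc1a3 1371130_at, with 0.18, they were Ubqln2 at 0.036, the vesicle traffic regulator gene Gdi2 at 0.038 and Wdr6 at 0.039. These 6 differed by -0.39 to -0.26 between olanzapine and saline, which their choice by profile largely fixes. For Slc17a7 1368987_at, with 0.078, they were Atp5mpl at 0.033, Tor1aip2 at 0.036 and the mitochondrial glutamate carrier gene Slc25a22 at 0.042. For Slc1a2 1369693_a_at, with 0.23, the nearest were Vmac, Dab1 and Taf1 at 0.073 to 0.083.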

How the data were processed

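RNA of 4 olanzapine and 4 saline rats was measured on 1 array each. The authors deposited linear probe set intensities, 31099 per array including 57 controls; with 2% trimmed at either end their mean was 500.0 on every array, so the values had been scaled. The software and its background correction are not stated in the labels used here. Signal at the bright end differed between arrays after this scaling, and the part of this in the differences of bright probe sets was not tested. The number of arrays limits the precision.

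Symbols came from the platform's 2016 annotation, updated by Entrez identifier from RefSeq. Intensities were turned into log2(intensity + 63.4), 63.4 being the 25th percentile. Probe sets at or below the 40th percentile of mean log2 value were removed. Limma 3.58.1 (R 4.3.3; lmFit, eBayes with trend, no covariates) compared olanzapine with saline, two-sided, with Benjamini-Hochberg adjustment over 18625 probe sets at 0.05, and was tested on simulated data. Members below the filter have values from a fit without it. Gaps between probe sets were compared by exact permutation over 70 assignments.

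All member probe sets were named. Of the other lists, the 3 genes with the smallest p were named for the pathway, astrocyte and thalamus lists, and the remaining marker lists were counted only. Members and lists were chosen with earlier results of these data known. Alternatives were quantile, cyclic loess and median scaling, pseudocounts of 1 and 174, no filter, a 60th percentile filter, no trend, array weights, a block for the animal number and each array left out.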

Additional observations from a re-analysis of the deposited data

Results flagged for a closer look

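In groups of 4 arrays, the highest or lowest value was called far from the rest by Dixon's test at 95%, which chance does in about 1 in 20 groups; 3 of 64 groups of member and named probe sets were. Slc1a2 1369694_at, a dim probe set, had 145.6 on olanzapine 14, where the other olanzapine arrays had 33.8 to 36.9. Aldh18a1, of the route from glutamate to proline, had 240.9 on saline 19, where the other saline arrays had 407.1 to 427.7. The vesicular proton pump gene Atp6v1e1 had 8620 on olanzapine 18, where the other olanzapine arrays had 6924 to 7176.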

How the results depend on the processing

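Members called numbered 0 under every scaling, pseudocount, filter, trend and weight setting tried, and over all probe sets the count was also 0 there. With each array left out the count over all probe sets ran from 0 to 106 and that of members from 0 to 2, both highest without saline 19; with quantile normalization and saline 19 left out they were 5 and 0. The signs of Glul 1367632_at, Slc1a1 1370367_at, Slc1a3 1371130_at and Slc17a6 were kept under all of these. The pairs gave 0 calls in every setting run. Even with all 8 arrays a call needed at least 7 pairs at the smallest possible p, and 3 arrays against 4 leave little room too. These counts of 0 therefore cannot show that the pair results are stable.

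The numbers 14 and 19 occur in both groups but name different animals. Deviations of same-numbered arrays correlated at 0.075 and 0.11. Olanzapine 9 and 18 and saline 15 and 17 have no same-numbered array in the other group. A block for the animal number therefore takes the difference from the arrays numbered 14 and 19 alone. With that replicate block 6 probe sets and 0 members were called. This count and the block values below rest on those few arrays, matched between different animals. They cannot show whether the differences over all arrays depend on the processing. Glud1 1387878_at was at -0.00505, Slc17a7 1368987_at at 0.0034, Slc3a2 at -0.055, Slc7a11 at -0.153 and Tcf7l2 at -0.0875, with the sign turned. The medians of the thalamus list at -0.025 and of the other transporters at -0.104 were turned too. Glul 1386870_at was at 0.295 and the median of the support of uptake at -0.119. Under array weights that median was -0.0245, with 3 higher and 4 lower.

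Small differences turned sign with the scaling. After quantile normalization Glud1 1387878_at was at -0.0139, Slc1a3 1368565_at at 0.068, Slc17a7 1368986_at at -0.022 and Gja1 at 0.080, and the gaps of Slc1a3 1368565_at over 1388064_a_at and of Slc17a7 over Slc1a2 at 0.054 and 0.036. After cyclic loess these were -0.0255, 0.047, -0.024, 0.0062, 0.048 and 0.065, and Slc1a3 1388064_a_at was at -0.00048. After median centring Glud1 1387878_at was at -0.043 and Slc17a7 1368986_at at -0.021. With quantile normalization and without saline 19, Glud1 1370200_at was at 0.0039, Glud1 1387878_at at -0.089, Slc1a3 1368565_at at 0.096, Slc1a3 1388064_a_at at -0.080, Slc17a7 1368986_at at -0.225, Aqp4 at 0.0064 and Gja1 at 0.10.

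With 1 array left out, Glud1 1370200_at ran from -0.18 to 0.034, Glud1 1387878_at from -0.064 to 0.095, Slc1a2 1369693_a_at from -0.17 to 0.082, Slc1a2 1369694_at from -0.455 to 0.074, Slc1a3 1388064_a_at from -0.0094 to 0.13, Slc17a7 1368986_at from -0.136 to 0.174, Slc17a7 1368987_at from -0.085 to 0.00035 and Slc7a11 from -0.032 to 0.193. The gap between the Glud1 probe sets ran from -0.22 to 0.082 and that of Slc17a7 over Slc1a2 from -0.154 to 0.17. The cause of these turns was not tested.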
